A study of Mus musculus with 8 samples.

Results

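The macrophage and monocyte genes are 36 genes chosen by symbol as known markers of these phagocytes, out of 34790 gene names on the array. Each was taken where the array's gene name equalled the symbol, with control spots left out, and was read on all 8 arrays. The samples came from dorsal skin of female C57BL/6 mice, an inbred laboratory strain, whose resting hair coat had been removed with wax, and no allele or drug is named for any of them. The plucked groups, in time order, were 12 h, 1 d, 2 d and 4 d (labelled 10 weeks old), 6 d and 10 d (labelled 11 weeks old) and 50 d (labelled 17 weeks old), and the control was skin that had only been shaved, from mice labelled 10 weeks old. The treatment protocol gives a younger age, and the files do not say which holds. The labels name the material as adipose cells, while the design text describes the tissue around the follicles with its fat and dermis, and the number of mice behind each sample is not stated. All 10 markers of mature adipocytes were well above background on all 8 arrays, and so were all 8 fibroblast markers and all 6 skeletal muscle markers, so RNA of other cell types was measured as well.

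Macrophages are tissue phagocytes that clear dead cells, debris and microbes, and monocytes are their relatives in blood. They survive on the growth factor CSF1 through its receptor CSF1R, bind antibody-coated particles through Fc receptors, take up sugars, lipids and debris through lectins and scavenger receptors, and digest what they engulf in lysosomes. In skin they live in the dermis and in the fat between hair follicles, and skin macrophages have been studied as a source of signals to resting follicles.

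Each of the 8 samples was hybridised to 1 one-colour array, all on 1 slide, so no group has a replicate, no difference below carries a test, and the spread between mice is unknown. A level is the background-corrected spot signal on the log2 scale, set to 0 at the 75th percentile of each array, and a difference of 1 is 2-fold. The share of spots well above background was 72.9% to 81.1%. Repeated spots of a probe had a median SD of 0.056 to 0.088, and different probes of a gene varied in their difference from the control by a median SD of 0.18 to 0.21. All 36 members were well above background on all 8 arrays, so every difference of a member was measured on both sides. For genes of the other lists, only the brighter of the compared arrays had to be well above background. The control array enters all 7 differences from the control, and the 50 d array all 7 differences from 50 d, so the comparisons within each set are not independent. In whole tissue, fewer cells of a type and less of an RNA per cell cannot be told apart.

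Most of the genes were lower after plucking than in shaved skin through 4 d, were nearer to the shaved control at 6 d and 10 d but mostly still below it, and were again farther below it at 50 d. The median difference of the 36 genes from the control was -0.83 after 12 h, -0.96 after 1 d, -1.37 after 2 d, -1.58 after 4 d, -0.58 after 6 d, -0.33 after 10 d and -1.21 after 50 d. Over all genes measured, the median stayed between -0.13 and 0.04. At 12 h, 13 of the 36 were at least 2-fold lower and 3 at least 2-fold higher, against 3.36% and 3.89% of all genes. At 1 d 17 were lower, against 3.14% of all genes, and at 2 d 23 were lower, against 3.52%. None was at least 2-fold higher at 1 d or 2 d, when 2.75% and 2.62% of all genes were. At 4 d 28 were lower and 1 was higher, against 6.54% and 5.93% of all genes. The numbers were smaller at 6 d, with 6 lower and 2 higher against 2.12% and 4.22%. With arrays centred on the median of bright probes instead of the percentile 3 were lower, and the share of all genes under that scaling is not given. At 10 d 4 were lower and 1 was higher, against 2.14% and 4.0% of all genes. At 50 d 25 were lower and none was higher, against 4.41% and 2.7%.

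**Figure D1:**
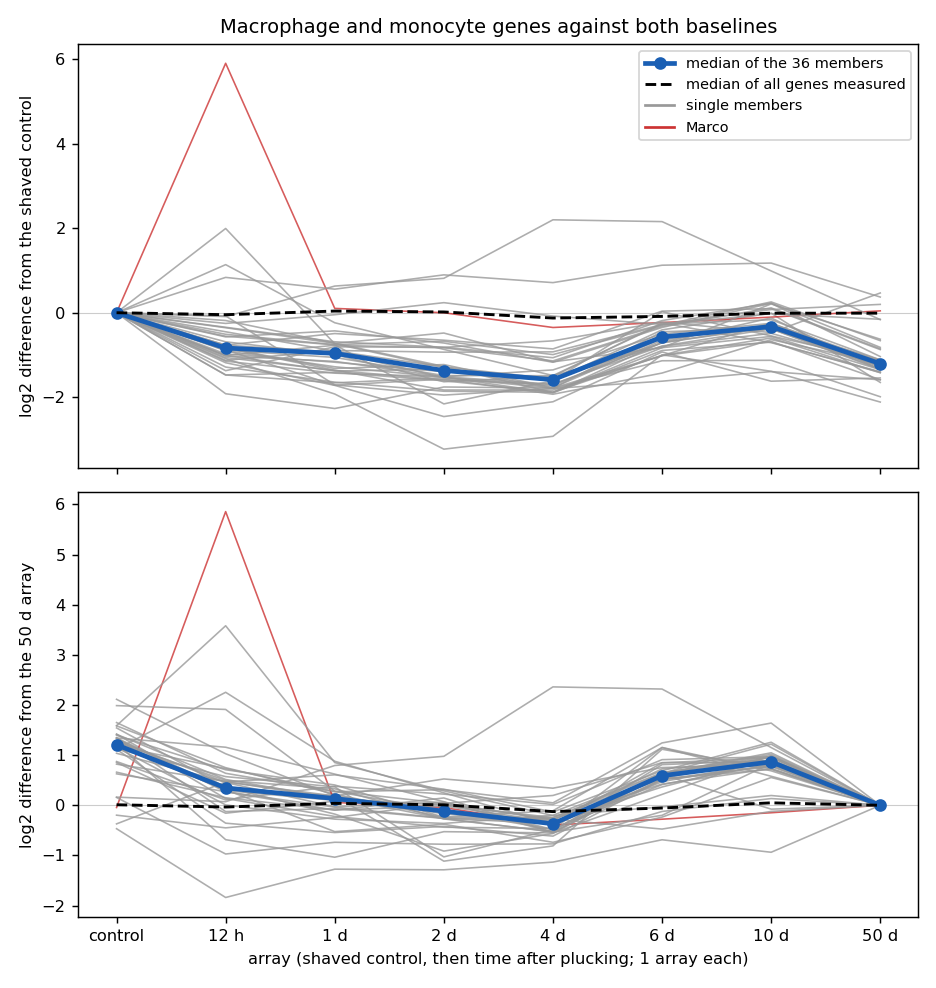
Log2 difference of each of the 36 genes (grey lines, Marco in red), of their median (blue) and of all genes measured (dashed) from the shaved control (upper plot) and from the 50 d array (lower plot), by array in time order, with 1 array per group. The blue median lies below the control at all 7 times, farthest at 4 d (-1.58), and crosses below the 50 d array at 2 d (-0.12) and 4 d (-0.37).

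Set against the 50 d array, the same genes gave another picture, because that array itself was 2-fold or more below the control for 25 of them. The shaved control stood above 50 d by a median of 1.21, with 25 of 36 genes at least 2-fold higher, against 4.41% of all genes. The median difference from 50 d was 0.35 after 12 h, 0.13 after 1 d, -0.12 after 2 d, -0.37 after 4 d, 0.59 after 6 d and 0.87 after 10 d. At 12 h 6 genes were at least 2-fold higher than at 50 d and 1 was lower, against 4.99% and 3.43% of all genes. At 1 d 2 were lower, against 2.57%, and at 2 d 3 were lower, against 2.2%. None was at least 2-fold higher then, when 4.12% and 3.66% of all genes were. At 4 d 1 was lower and 1 was higher, against 5.4% and 6.92%. At 6 d 5 were higher, against 6.59%, and at 10 d 6 were higher, against 6.98%. None was lower at either time, when 4.17% and 5.58% of all genes were. With quantile normalization 16 were higher at 10 d, and the share of all genes under that scaling is not given. The low values at 1 d, 2 d and 4 d were thus low relative to the shaved control and close to 50 d. Mice at 50 d were also older by the labels, and age and time after plucking cannot be told apart there.

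Neither of those arrays enters the step between 4 d and the later times. The 4 d array was the lowest of the 8 for 22 of the 36 genes, against 25.7% of all genes. For those 22, higher values at 6 d and 10 d were therefore given in advance. Each time is 1 array, and the labelled age also goes from 10 to 11 weeks at this step. Of the 36 genes, 34 were higher at 6 d than at 4 d, against 51.1% of all genes well above background throughout, with a median of 0.87 and 13 genes at least 2-fold higher, against 5.12% of all genes, and none lower, against 2.66%. At 10 d 35 of 36 were higher than at 4 d, against 59.5%, with a median of 1.25 and 25 genes at least 2-fold higher, against 9.47% of all genes. The exception at 10 d was Arg1, 1.21 below its 4 d level, and 6.0% of all genes were at least 2-fold lower. Between 10 d and 6 d the median difference was 0.27, with 1 gene at least 2-fold higher at 10 d (Cd14, 2.05-fold) and 1 lower (Arg1, by 1.17 on the log2 scale), against 2.81% and 3.9% of all genes.

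The order of the arrays was shared by most of the genes. The shaved control was the highest of the 8 arrays for 22 of the 36, against 12.3% of all genes well above background throughout. The 4 d array was the lowest for 22 of the 36, against 25.7% of all genes. At 2 d lay the lowest value of 5 others, Fcgr1, Siglec1 (by its brighter probe), Folr2, Ms4a7 and Aif1. In 25 of the 36, the control, 6 d and 10 d were all above 1 d, 2 d, 4 d and 50 d, an order seen in 7.27% of all genes. That is the order of the members' own median profile with 12 h left out, and the control and 4 d are the ends of that profile. The counts of highest, lowest and ordered arrays therefore describe the members and test nothing. At 10 d lay the highest value of 7 genes, Cd163, Cd14, Mrc1, Clec10a, Csf1r, Csf1 and Gpnmb. Apart from Gpnmb, these 6 were between 0.10 and 0.26 above the control at 10 d, close to the SD between probes. The file header of the 10 d array reports its spike-in slope as out of range, and its part in these values was not tested.

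**Figure D2:**
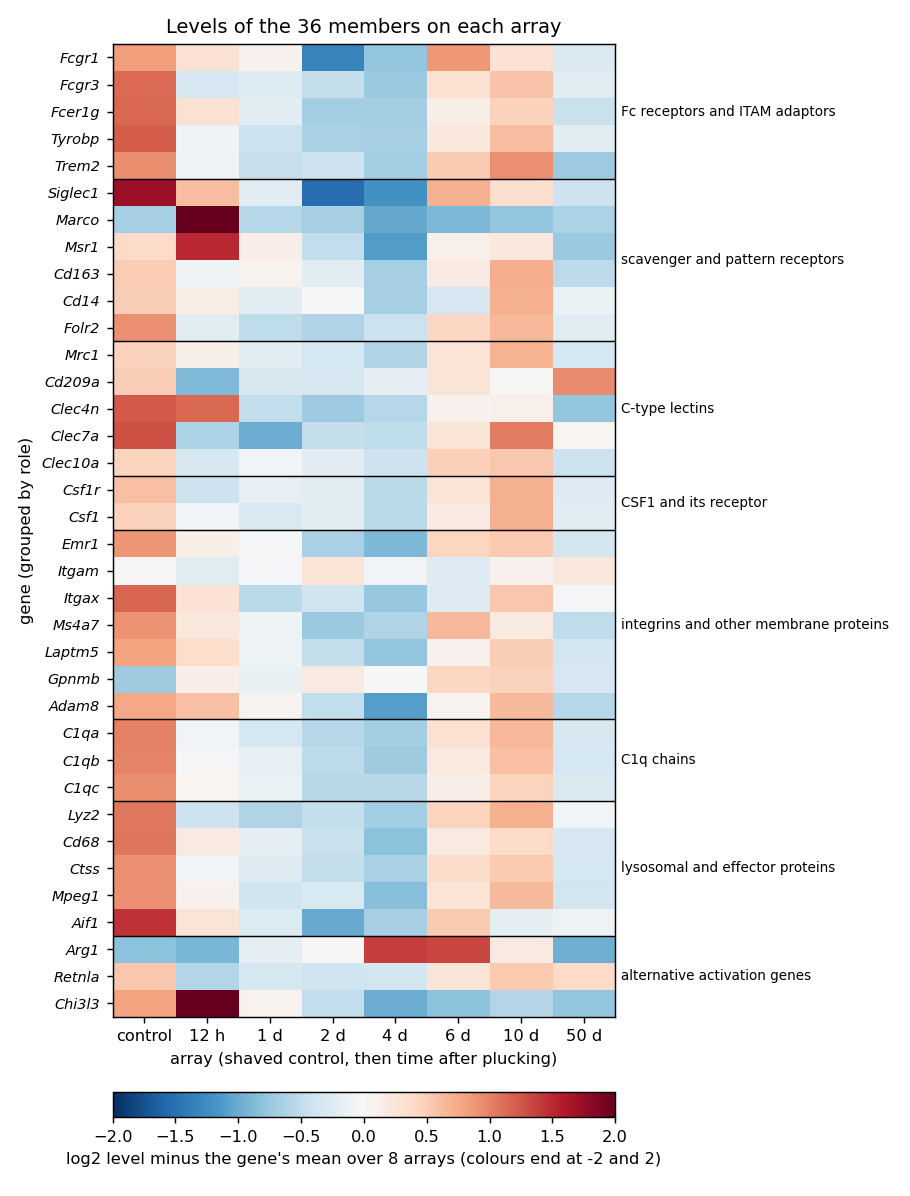
Level of each of the 36 genes on each array, as the log2 level minus that gene's own mean over the 8 arrays (red higher, blue lower, colours end at -2 and 2), with genes grouped by role and arrays in time order. The control, 6 d and 10 d columns are red for most rows, and the 2 d, 4 d and 50 d columns are blue, with Marco, Chi3l3, Arg1, Gpnmb, Itgam and Cd209a as rows of another pattern.

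The 3 chains of C1q, the recognition part of the classical complement pathway and in tissue mostly a macrophage product, moved almost as 1 gene. C1qb had levels of 5.15 in the control, 4.13 after 12 h, 4.00 after 1 d, 3.64 after 2 d, 3.46 after 4 d, 4.37 after 6 d, 4.77 after 10 d and 3.81 after 50 d. It was 3.23-fold lower at 4 d than in the control. C1qa read 5.53 in the control, 4.47 after 12 h, 4.16 after 1 d, 3.94 after 2 d, 3.83 after 4 d, 4.82 after 6 d, 5.18 after 10 d and 4.20 after 50 d. C1qc read 6.31 in the control, 5.43 after 12 h, 5.26 after 1 d, 4.83 after 2 d, 4.82 after 4 d, 5.52 after 6 d, 5.83 after 10 d and 5.09 after 50 d. All 3 chains were at least 2-fold lower than the control at 1 d, 2 d, 4 d and 50 d, and none was at 6 d or 10 d. The shares of all genes were 3.14%, 3.52%, 6.54% and 4.41%, and 2.12% and 2.14% at 6 d and 10 d. At 10 d they were 0.73 to 0.98 above the 50 d array, and at 4 d 0.27 to 0.37 below it.

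The stretch of 250 bases before the transcription start is shown for C1qb, C1qc and Ctss, which followed the shared course most closely and have such a window in RefSeq (GRCm38.p6). Capitals mark GAGGAA, a purine-rich core of the kind bound by the macrophage factor PU.1, and AGGAAGT, a longer ETS-type core, on either strand, so that ACTTCCT is AGGAAGT read from the other strand. The C1qb window is chr4:136886201-136886450, the C1qc window chr4:136892915-136893164, both on the minus strand, and the Ctss window chr3:95526536-95526785 on the plus strand.
C1qb: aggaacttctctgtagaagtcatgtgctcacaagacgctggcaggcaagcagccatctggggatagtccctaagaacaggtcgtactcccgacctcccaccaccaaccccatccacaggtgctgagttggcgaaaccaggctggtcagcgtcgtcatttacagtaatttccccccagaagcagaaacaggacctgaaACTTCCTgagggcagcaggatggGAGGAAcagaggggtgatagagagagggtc
C1qc: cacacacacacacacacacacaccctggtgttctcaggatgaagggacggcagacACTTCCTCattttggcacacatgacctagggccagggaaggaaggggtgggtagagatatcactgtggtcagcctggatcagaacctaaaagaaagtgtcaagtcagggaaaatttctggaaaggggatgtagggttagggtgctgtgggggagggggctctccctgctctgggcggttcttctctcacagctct
Ctss: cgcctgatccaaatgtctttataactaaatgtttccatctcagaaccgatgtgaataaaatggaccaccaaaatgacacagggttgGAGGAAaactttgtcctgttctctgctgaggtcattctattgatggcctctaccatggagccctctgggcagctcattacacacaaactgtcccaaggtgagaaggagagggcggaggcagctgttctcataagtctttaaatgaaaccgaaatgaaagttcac
In C1qb the motifs start 53 and 30 bases before the transcription start, and in C1qc 2 overlapping matches start 195 and 193 bases before it. The match in Ctss starts 164 bases before the start.

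Windows of this length were found for 26 of the 36 genes, 30 windows in all because some genes have several starts, and 11 motifs were searched on both strands. GAGGAA was in 16 of the 30 windows (53.3%), against 23.3% of 32851 windows of all genes. AGGAAGT was in 8 (26.7%), against 7.69% of all windows, and the shorter GGAAGT, which it contains, in 12 (40%), against 19.7%. GAGGAAGT, which holds all 3 of these, was in 2 windows (6.67%), those of C1qc and Retnla, against 2.44%. The AP-1 core TGANTCA was in 5 windows (16.7%), those of Cd68, Folr2, Itgax, Ms4a7 and Trem2, against 6.75%, and the C/EBP core TTGCNNAA also in 5 (16.7%), against 9.56%. GAAANNGAA, a core of interferon-response elements, was in 6 (20%), those of Aif1, Chi3l3, Ctss, Folr2 and Ms4a7, against 7.13%. With 1 more A at its end it was in 2 (6.67%), Aif1 and Ctss, against 2.98%, and with a C at its first free base as well in 1 (3.33%), Ctss, against 0.569%. TTCNNNGAA, the core bound by STAT factors, was in 2 (6.67%), against 7.02%, and TATAAA in 4 (13.3%), against 12.4%. A match describes the letters of a window and is not evidence of a bound site.

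The 5 lysosomal and effector genes followed the same course, and all 5 were at least 2-fold lower than the control at 1 d, 2 d, 4 d and 50 d. Of all genes, 3.14%, 3.52%, 6.54% and 4.41% were at least 2-fold lower then. Ctss, which encodes the lysosomal protease cathepsin S, stood at 6.07 in the control, 5.10 after 12 h, 4.90 after 1 d, 4.68 after 2 d, 4.51 after 4 d, 5.53 after 6 d, 5.69 after 10 d and 4.81 after 50 d. Cd68, a lysosomal membrane glycoprotein used as a pan-macrophage marker, stood at 5.87 in the control, 4.97 after 12 h, 4.59 after 1 d, 4.35 after 2 d, 3.98 after 4 d, 4.98 after 6 d, 5.18 after 10 d and 4.46 after 50 d. It was 3.72-fold lower at 4 d than in the control. Lyz2, the lysozyme of myeloid cells, stood at 4.73 in the control, 3.25 after 12 h, 3.07 after 1 d, 3.19 after 2 d, 3.00 after 4 d, 4.12 after 6 d, 4.38 after 10 d and 3.61 after 50 d. Its 12 h value was already 1.47 below the control and 0.36 below 50 d, and its probe may also bind the near-identical Lyz1. Mpeg1, a pore-forming protein of phagosomes, differed from the control by -0.84 after 12 h, -1.77 after 4 d and -0.27 after 10 d. Aif1, the calcium-binding protein Iba1, stood at 4.38 in the control, 3.20 after 12 h, 2.66 after 1 d, 1.93 after 2 d, 2.28 after 4 d, 3.45 after 6 d, 2.76 after 10 d and 2.84 after 50 d. Aif1 was 5.49-fold lower at 2 d than in the control, and at 10 d it was still lower by 1.62 on the log2 scale, while the other 4 genes of the group lay within 0.70 of the control.

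All 5 Fc receptor and ITAM adaptor genes were at least 2-fold lower than the control at 2 d, 4 d and 50 d, against 3.52%, 6.54% and 4.41% of all genes. The group medians were -1.83, -1.83 and -1.42. Tyrobp, the adaptor DAP12 that carries signals of TREM2 and other receptors, read 5.56 in the control, 4.27 after 12 h, 3.91 after 1 d, 3.70 after 2 d, 3.67 after 4 d, 4.55 after 6 d, 4.96 after 10 d and 4.14 after 50 d. Fcer1g, the shared signalling chain of Fc receptors, read 6.14 in the control, 5.30 after 12 h, 4.78 after 1 d, 4.31 after 2 d, 4.31 after 4 d, 5.12 after 6 d, 5.46 after 10 d and 4.55 after 50 d. Both were lowest at 2 d and 4 d, 3.69-fold below the control at 4 d in the case of Tyrobp. Trem2, a receptor for lipids and apoptotic cells, read 2.42 in the control, 1.41 after 12 h, 1.04 after 1 d, 1.08 after 2 d, 0.82 after 4 d, 2.01 after 6 d, 2.41 after 10 d and 0.77 after 50 d. Trem2 was within 0.01 of the control at 10 d and stood 1.64 above 50 d, the largest difference of any of the 36 genes between those arrays. Fcgr3, a low-affinity IgG receptor, differed from the control by -1.47 after 12 h, -1.88 after 4 d and -0.56 after 10 d, and its probe may share signal with other Fc receptor genes of similar sequence.

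Fcgr1, the high-affinity IgG receptor, had its lowest value at 2 d, and so did Siglec1, the sialic acid receptor CD169, by the brighter of its 2 probes. Both are known to be induced by interferon. Fcgr1 differed from the control by -0.56 after 12 h, -0.76 after 1 d, -2.16 after 2 d, -1.61 after 4 d, 0.023 after 6 d, -0.55 after 10 d and -1.13 after 50 d. Siglec1 read 2.77 in the control, 1.68 after 12 h, 0.85 after 1 d, -0.46 after 2 d, -0.15 after 4 d, 1.77 after 6 d, 1.38 after 10 d and 0.66 after 50 d by its brighter probe. By that probe it was 9.36-fold lower at 2 d than in the control, and 1.11 below 50 d on the log2 scale. Its other probe differed from the control by -1.18 after 2 d, -1.44 after 4 d and -1.20 after 50 d, and from 50 d by 0.014 after 2 d, so the size of the 2 d difference, its place below 50 d and the lowest value at 2 d rather than 4 d rest on 1 probe. The probes are shown by their first 30 bases because they read distant positions of the gene on mm9, the brighter at chr2:130895093-130895152 and the dimmer at chr2:130909693-130909752, both on the minus strand, and no base is in capitals.
Siglec1, brighter probe: ttttctccattccccaagtgttgcctttga
Siglec1, dimmer probe: aggaacatccttcccggggatccagtcaca
Whether these probes read different transcripts was not tested.

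A list of 18 interferon-stimulated genes, set beside these receptors, had its lowest medians at 2 d and 4 d. The list's median difference from the control was -0.77 after 12 h, -0.63 after 1 d, -1.95 after 2 d, -1.78 after 4 d, -0.06 after 6 d, -0.69 after 10 d and -0.91 after 50 d. At 2 d and at 4 d 16 of 18 were at least 2-fold lower, against 3.52% and 6.54% of all genes, and none was at 6 d, against 2.12%. Irf7, the interferon regulatory factor that amplifies the response, was lower by 2.92 after 2 d and 0.90 after 6 d on the log2 scale. Oas2, an RNA-sensing antiviral enzyme, differed by -2.23 after 2 d and 0.06 after 6 d. Against 50 d the list stood at -0.998 after 2 d, with 9 of 18 lower against 2.2% of all genes, and at 0.74 after 6 d, with 6 of 18 higher against 6.59%. C1qb, in comparison, differed from the control by -1.51 after 2 d, -1.69 after 4 d and -0.79 after 6 d. A link between the list and the receptors was not tested.

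**Figure D3:**
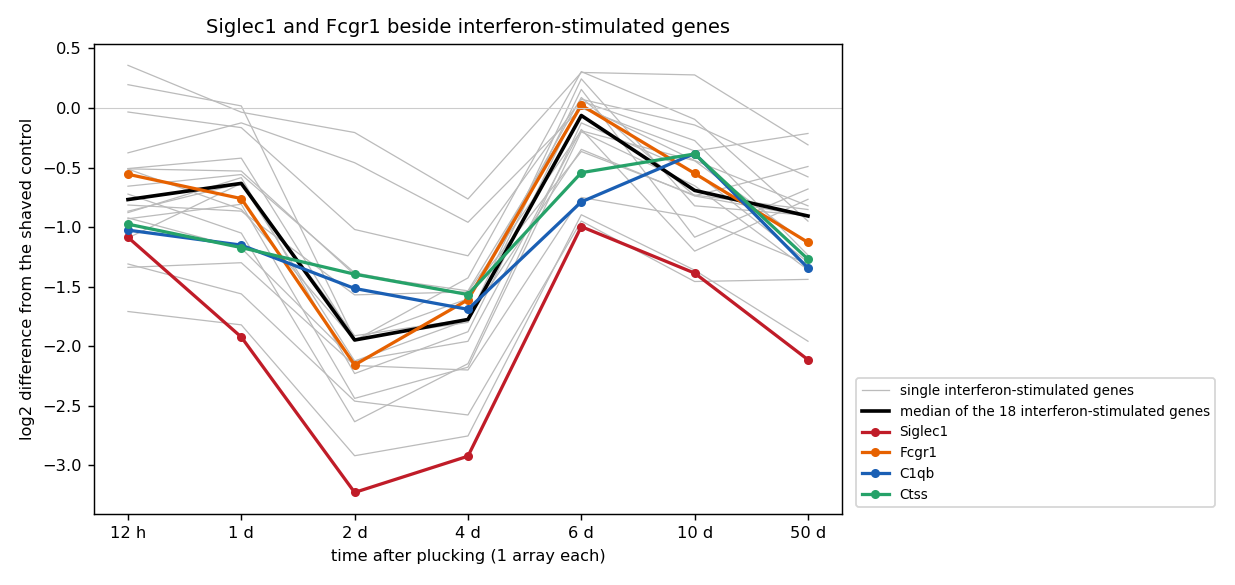
Log2 difference from the shaved control by time after plucking, 1 array each, for Siglec1, Fcgr1, C1qb and Ctss (coloured lines) and for 18 interferon-stimulated genes (grey lines, median in black). Siglec1 by its brighter probe, Fcgr1 and the black median are lowest at 2 d (-3.23, -2.16 and -1.95; the other Siglec1 probe, not drawn, is lowest at 4 d), and C1qb and Ctss are lowest at 4 d (-1.69 and -1.57).

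Of the other scavenger and pattern receptors, Folr2, Cd163 and Cd14 were below the control from 12 h to 6 d. Folr2, a folate receptor of resident macrophages, read 5.85 in the control, 4.70 after 12 h, 4.42 after 1 d, 4.33 after 2 d, 4.49 after 4 d, 5.34 after 6 d, 5.60 after 10 d and 4.69 after 50 d. It was at least 2-fold lower than the control at 12 h, 1 d, 2 d, 4 d and 50 d. Cd163, the haemoglobin scavenger receptor, read -0.72 in the control, -1.29 after 12 h, -1.15 after 1 d, -1.43 after 2 d, -1.89 after 4 d, -1.07 after 6 d, -0.50 after 10 d and -1.76 after 50 d. Cd14, the co-receptor for lipopolysaccharide, read 3.07 in the control, 2.72 after 12 h, 2.35 after 1 d, 2.59 after 2 d, 1.91 after 4 d, 2.24 after 6 d, 3.28 after 10 d and 2.44 after 50 d. Both were lowest at 4 d and highest at 10 d, where Cd163 stood 1.26 and Cd14 0.84 above 50 d.

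The 5 C-type lectins differed among themselves, with a group median of -0.77 after 12 h, -1.06 after 4 d and -0.24 after 10 d. Mrc1, the mannose receptor CD206, read 4.56 in the control, 4.22 after 12 h, 3.88 after 1 d, 3.75 after 2 d, 3.50 after 4 d, 4.38 after 6 d, 4.79 after 10 d and 3.74 after 50 d. Clec10a, a galactose-type lectin, stayed within 0.87 of the control on every array. Clec7a, the beta-glucan receptor dectin-1, read 2.97 in the control, 1.05 after 12 h, 0.70 after 1 d, 1.21 after 2 d, 1.19 after 4 d, 1.96 after 6 d, 2.73 after 10 d and 1.74 after 50 d. It was lowest at 1 d, 4.81-fold below the control and 1.04 below 50 d on the log2 scale. Clec4n, the fungal receptor dectin-2, read 2.06 in the control, 1.98 after 12 h, 0.35 after 1 d, 0.11 after 2 d, 0.26 after 4 d, 0.92 after 6 d, 0.93 after 10 d and 0.07 after 50 d. At 12 h Clec4n was 0.08 below the control, and at 6 d and 10 d it remained at least 2-fold below it. Cd209a, a lectin also found on dendritic cells, read 1.43 in the control, 0.06 after 12 h, 0.63 after 1 d, 0.61 after 2 d, 0.77 after 4 d, 1.21 after 6 d, 0.96 after 10 d and 1.90 after 50 d. It is the gene of the set with its highest value at 50 d, so that 12 h, 1 d, 2 d and 4 d were 1.84, 1.27, 1.29 and 1.13 below that array, and its probes may bind other Cd209 genes.

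The growth factor Csf1 and its receptor Csf1r were below the control from 12 h to 6 d. By its brightest probe Csf1r was at least 2-fold lower at 12 h and 4 d. Csf1r read 6.82 in the control, 5.81 after 12 h, 6.05 after 1 d, 5.99 after 2 d, 5.68 after 4 d, 6.49 after 6 d, 6.93 after 10 d and 5.96 after 50 d. Csf1 read 2.69 in the control, 2.18 after 12 h, 1.93 after 1 d, 2.01 after 2 d, 1.70 after 4 d, 2.39 after 6 d, 2.94 after 10 d and 2.03 after 50 d. The pair were lowest at 4 d and highest at 10 d, where they stood 0.97 and 0.92 above 50 d. By its brightest probe Csf1 was not 2-fold lower at any time, with -0.99 at 4 d. The 2 next Csf1 probes gave -1.23 and -1.14 at 1 d, -1.47 and -1.34 at 2 d, -1.48 and -1.44 at 4 d and -1.20 and -1.18 at 50 d. At 10 d they gave -0.16 and -0.12 against 0.26 for the brightest, so both the size of the Csf1 differences and its place above the control at 10 d depend on the probe.

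Among integrins and other membrane proteins, 5 of 7 were at least 2-fold lower than the control at 2 d, 4 d and 50 d. The shares of all genes were 3.52%, 6.54% and 4.41%. Emr1, now named Adgre1, encodes the F4/80 antigen of mouse macrophages and read 3.93 in the control, 3.16 after 12 h, 3.00 after 1 d, 2.40 after 2 d, 2.15 after 4 d, 3.48 after 6 d, 3.57 after 10 d and 2.67 after 50 d. It was 3.45-fold lower at 4 d than in the control. Itgax, the integrin CD11c of macrophages and dendritic cells, read 0.91 in the control, 0.03 after 12 h, -0.81 after 1 d, -0.66 after 2 d, -1.02 after 4 d, -0.52 after 6 d, 0.27 after 10 d and -0.28 after 50 d. At 6 d Itgax was still lower by 1.43, when Emr1 was lower by 0.45. Adam8, a membrane metalloprotease, differed from the control by -0.18 after 12 h, -0.72 after 1 d, -1.27 after 2 d, -1.88 after 4 d, -0.70 after 6 d, -0.12 after 10 d and -1.34 after 50 d. The lysosomal membrane protein Laptm5 and the membrane protein Ms4a7 differed from the control by -1.28 and -1.63 after 2 d, and by -0.31 and -0.71 after 10 d.

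Itgam, the integrin CD11b of myeloid cells, is read by 3 probes that gave different courses. Its brightest probe was nearly level, at 4.85 in the control, 4.60 after 12 h, 4.81 after 1 d, 5.09 after 2 d, 4.77 after 4 d, 4.58 after 6 d, 4.93 after 10 d and 5.05 after 50 d. The next probe read 0.67 in the control, 0.47 after 12 h, -0.09 after 1 d, -0.58 after 2 d, -0.79 after 4 d, -0.04 after 6 d, 0.71 after 10 d and -0.33 after 50 d. The first 30 bases of each are shown because the brightest begins with a run of 20 bases of CA repeat, marked in capitals. The probes lie on the plus strand of mm9 at chr7:135261755-135261814 (brightest), chr7:135260275-135260334 (next) and chr7:135212140-135212199 (dimmest).
Itgam, brightest probe: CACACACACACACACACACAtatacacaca
Itgam, next probe: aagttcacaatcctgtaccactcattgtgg
Itgam, dimmest probe: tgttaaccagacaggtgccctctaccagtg
On the array, 81 probes hold such a repeat of at least 18 bases, and their median level was 4.45, against -2.90 over all probes. Over the 8 arrays, the profile of the brightest Itgam probe had a Pearson r of -0.25 with the median of the other members, the next 0.91 and the dimmest 0.73. Other genes of the set had probes of another sign near 0. A second probe differed from the control by 0.078 against -0.22 for Cd209a at 6 d, and by 0.17 against -0.17 for Msr1 at 10 d. Set against 50 d, other probes of Csf1, Cd68 and Mpeg1 at 1 d and of Csf1r and Mpeg1 at 2 d had another sign than the brightest, all between -0.12 and 0.33. Binding of the brightest Itgam probe to other repeat-bearing RNA was not tested.

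At 12 h 3 genes stood at least 2-fold above the control while most others were below it. Marco, a class A scavenger receptor known in the mouse from macrophages of the splenic marginal zone and lymph nodes, read -1.42 in the control, 4.48 after 12 h, -1.32 after 1 d, -1.42 after 2 d, -1.77 after 4 d, -1.65 after 6 d, -1.52 after 10 d and -1.37 after 50 d. Its 12 h level was 59.7-fold above the control and 5.86 above 50 d, and no other array lay more than 0.35 from the control. Chi3l3, now named Chil3, encodes the chitinase-like protein Ym1 and read -0.15 in the control, 1.85 after 12 h, -0.88 after 1 d, -1.45 after 2 d, -1.94 after 4 d, -1.76 after 6 d, -1.54 after 10 d and -1.73 after 50 d. It was 3.98-fold above the control at 12 h and at least 2-fold below it at every array from 2 d on, and its probe may also bind the near-identical Chi3l4. Msr1, the class A scavenger receptor SR-A, read -1.70 in the control, -0.56 after 12 h, -1.93 after 1 d, -2.56 after 2 d, -3.18 after 4 d, -1.97 after 6 d, -1.86 after 10 d and -2.81 after 50 d. Its 2.20-fold difference at 12 h was smaller by its second probe, which gave 0.41 on the log2 scale.

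Markers of other blood cells were compared at 12 h, when 3.89% of all genes were at least 2-fold higher than the control and 3.36% lower. The B cell list stood far above the control, and the other lists were mixed or nearer to it. The list of 8 B cell markers had a median difference from the control of 3.84 after 12 h, with 6 of 8 at least 2-fold higher, and its summed signal was 28.2 times the array's 75th percentile at 12 h, against 1.64 in the control and 0.936 to 1.85 on the other 6 arrays. Ms4a1, which encodes CD20, was higher by 5.71 and Cd79a, a B cell receptor chain, by 4.22 on the log2 scale. The neutrophil list had a median of 0.55 and values from -1.03 to 4.49, with 4 of 12 measured genes at least 2-fold higher and 1 lower. Its summed signal was 215 after 12 h against 143 in the control. The highest of that list was S100a8, a calcium-binding protein of neutrophils and stressed keratinocytes. T and NK cell markers had a median of 0.61, with 4 of 10 higher. Langerhans and dendritic cell markers had a median of 0.28, with 3 of 8 measured genes higher and 1 lower. Their values ran from -1.22 to 2.93, and the highest was Ccr7, the homing receptor of lymphocytes and migrating dendritic cells. The part of these cells in the 12 h values of Marco, Chi3l3 and Msr1 was not tested.

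Arg1 and Gpnmb were above the control at later times. Arg1, the arginase of alternatively activated macrophages and also an enzyme of epidermal keratinocytes, read -3.12 in the control, -3.22 after 12 h, -2.49 after 1 d, -2.31 after 2 d, -0.93 after 4 d, -0.97 after 6 d, -2.14 after 10 d and -3.29 after 50 d. It was 4.59-fold above the control at 4 d and 4.45-fold at 6 d, and 2.36 and 2.32 above 50 d on the log2 scale. Hair shaft and inner root sheath markers stood at medians of 7.72 after 4 d, 8.00 after 6 d and 6.96 after 10 d over the control, and markers of dividing cells at 2.48 after 4 d, 1.37 after 6 d and -0.83 after 10 d. Interfollicular keratinocyte markers had medians of 2.25 after 12 h, 3.26 after 1 d and 2.13 after 2 d. Their medians were 2.02 after 4 d, 0.86 after 6 d and -1.32 after 10 d. At least 2-fold above the control were 9 of these 10 markers at 4 d and 4 at 6 d, against 5.93% and 4.22% of all genes. The part of all these cells in the Arg1 values was not tested. Gpnmb, a glycoprotein of lipid-laden macrophages and pigment cells, read 0.61 in the control, 1.44 after 12 h, 1.16 after 1 d, 1.501 after 2 d, 1.32 after 4 d, 1.73 after 6 d, 1.78 after 10 d and 0.98 after 50 d. It was the only one of the 36 that was lowest in the control, and it was at least 2-fold above it at 6 d and at 10 d, with 2.26-fold at 10 d. Retnla, the secreted protein RELM-alpha of alternatively activated macrophages, read 8.72 in the control, 7.59 after 12 h, 7.83 after 1 d, 7.79 after 2 d, 7.80 after 4 d, 8.44 after 6 d, 8.70 after 10 d and 8.56 after 50 d. Unlike most of the set, Retnla at 50 d was within 0.16 of the control, so that 1 d, 2 d and 4 d lay 0.74 to 0.78 below 50 d.

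**Figure D4:**
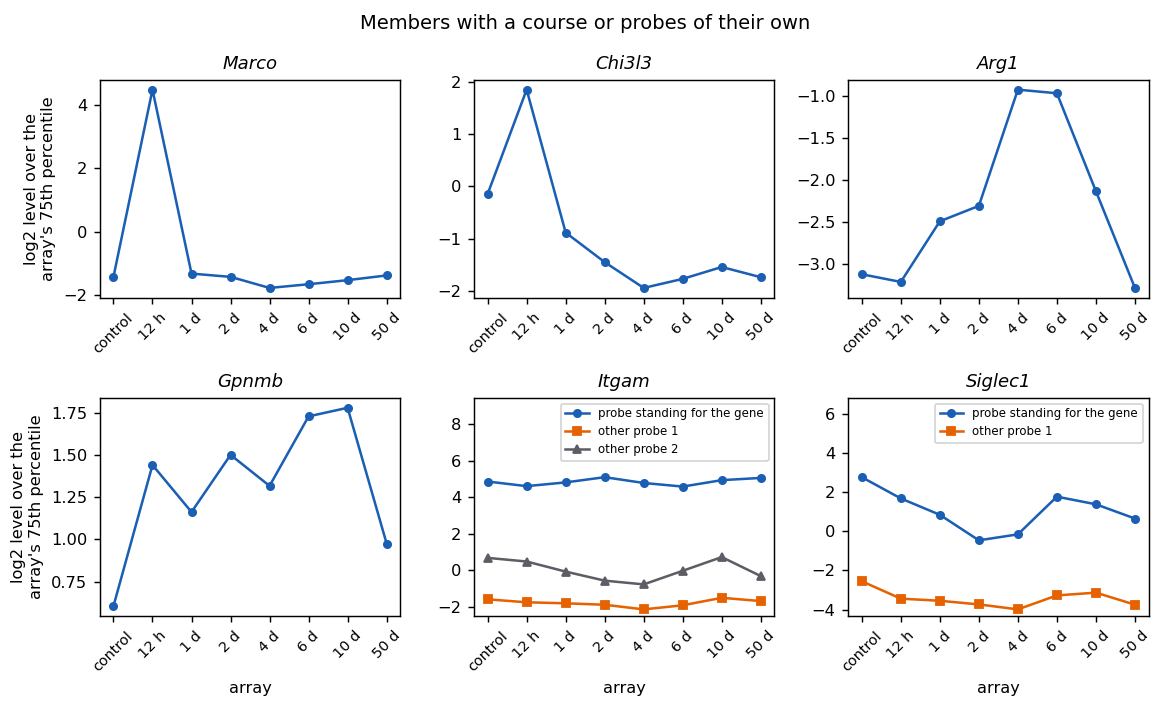
Log2 level over the array's 75th percentile, by array in time order with 1 array each, of Marco, Chi3l3, Arg1, Gpnmb, Itgam and Siglec1, with each measured probe of Itgam and Siglec1 as its own line and its own scale in each plot. Marco and Chi3l3 peak at 12 h (4.48 and 1.85), Arg1 after 4 d and 6 d (-0.93 and -0.97), and the brightest Itgam probe stays between 4.58 and 5.09.

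The likeness of the courses was described by the Pearson r of each gene with the median of the other 35 over the 8 arrays. These arrays are the same for all genes, so r is a description with no test. It was over 0.8 for 26 of the 36, which were not filtered on range. Of 8047 genes with a range of at least 1 on the log2 scale, 9.62% had an r over 0.8 with the median of all 36. Those genes include members, so the shares are not measured alike. C1qb at 0.993, Ctss at 0.992, C1qa at 0.990 and C1qc at 0.985 were closest to the others. Below 0.5 were Arg1, Itgam, Gpnmb, Marco, Cd209a and Chi3l3. Outside the set, the named genes with the most similar profile over the 8 arrays were Tnfaip8l2 (r = 0.992), Grn (0.991), Fermt3 (0.990), Cotl1 (0.988), Fes (0.987), Dok2 (0.987) and Nfam1 (0.985). The 10 closest also held 3 transcripts without a standard gene name.

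Other myeloid genes, listed by pathway, had medians of the same sign as the set at all 7 times, nearer to 0. Of 94 genes in 7 lists, 91 were measured, and their median difference from the control was -0.27 after 12 h, -0.62 after 1 d, -0.88 after 2 d, -1.12 after 4 d, -0.41 after 6 d, -0.16 after 10 d and -0.88 after 50 d. At least 2-fold lower were 4 after 12 h, 27 after 1 d, 40 after 2 d, 49 after 4 d, 12 after 6 d, 3 after 10 d and 39 after 50 d. The 4 of 91 at 12 h and the 3 at 10 d stand beside 3.36% and 2.14% of all genes, and at the other times the shares of all genes were 3.14%, 3.52%, 6.54%, 2.12% and 4.41% in time order. At least 2-fold higher were 8 at 12 h, more than were lower then, and no more than 3 at any later time. Of all genes, 3.89% were at least 2-fold higher at 12 h and 2.62% to 5.93% at the later times. The list of 14 activation genes had medians of 0.12 after 12 h, with 5 higher and 1 lower, -0.75 after 4 d, 0.04 after 10 d and -0.11 after 50 d. All 5 subunits of the phagocyte NADPH oxidase, which makes the oxidative burst, were at least 2-fold lower at 2 d, 4 d and 50 d. Ncf4, one of them, differed by -2.06 after 4 d and -0.44 after 10 d. Of 14 genes of tissue-resident macrophages, 8 were lower at 4 d and 8 after 50 d, and none was at 6 d or 10 d. The chemokine Ccl24 of that list was the lowest of all 91 after 12 h, at -2.58. Cd5l, a secreted macrophage protein, was 0.22 above the control at 12 h and -2.68 from it at 2 d. Of 18 genes of myeloid lineage and adhesion, 14 were lower at 4 d, led by the surface peptide gene Cd52 at -2.20, and the Fc receptor Fcgr4 was lowest of the 91 after 4 d, at -2.39. Ccr2, the chemokine receptor of inflammatory monocytes, differed by -1.14 after 12 h, -1.53 after 4 d and -0.26 after 10 d, and Cx3cr1, the fractalkine receptor, stayed between -0.75 and 0.31. The lectin Clec4d, which neutrophils also express, was the highest of the 91 at 12 h, at 3.76. Clec4d was still 1.73 above the control at 1 d and 1.11 after 2 d. The inflammatory cytokine Il1b was the highest of the 91 after 50 d, at 1.64.

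Marker lists of the other cell types followed various courses. Mature adipocyte markers had a median difference from the control of -0.17 after 12 h, 0.37 after 1 d, 0.42 after 2 d, -0.76 after 4 d, -0.78 after 6 d, -0.69 after 10 d and 0.23 after 50 d. They were thus above the control at 1 d, 2 d and 50 d, where the macrophage genes were below it, and lower at 6 d and 10 d. Fibroblast markers differed by -0.52 after 12 h, -0.41 after 1 d, -0.49 after 2 d, -0.41 after 4 d, -0.21 after 6 d, -0.11 after 10 d and -0.65 after 50 d, in the direction of the macrophage genes at each time and by less. Endothelial markers lay between -0.41 and 0.46, and mast cell markers between -0.20 and 0.51. Skeletal muscle markers differed by 0.65 after 50 d and by -0.28 to 0.09 at the other times, and erythrocyte markers by 1.86 after 10 d and 1.11 after 50 d. Markers of dividing cells were also below the control at several times, by medians of -1.17 after 12 h, -1.43 after 1 d, -0.89 after 2 d and -0.88 after 50 d. At 1 d 7 of 8 were at least 2-fold lower, against 3.14% of all genes. These markers were above the control at 4 d and 6 d. Langerhans and dendritic cell markers had medians of 0.01 after 1 d, -0.09 after 2 d and -0.66 after 4 d. What a change in the share of these cells adds to the macrophage values was not tested.

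**Figure D5:**
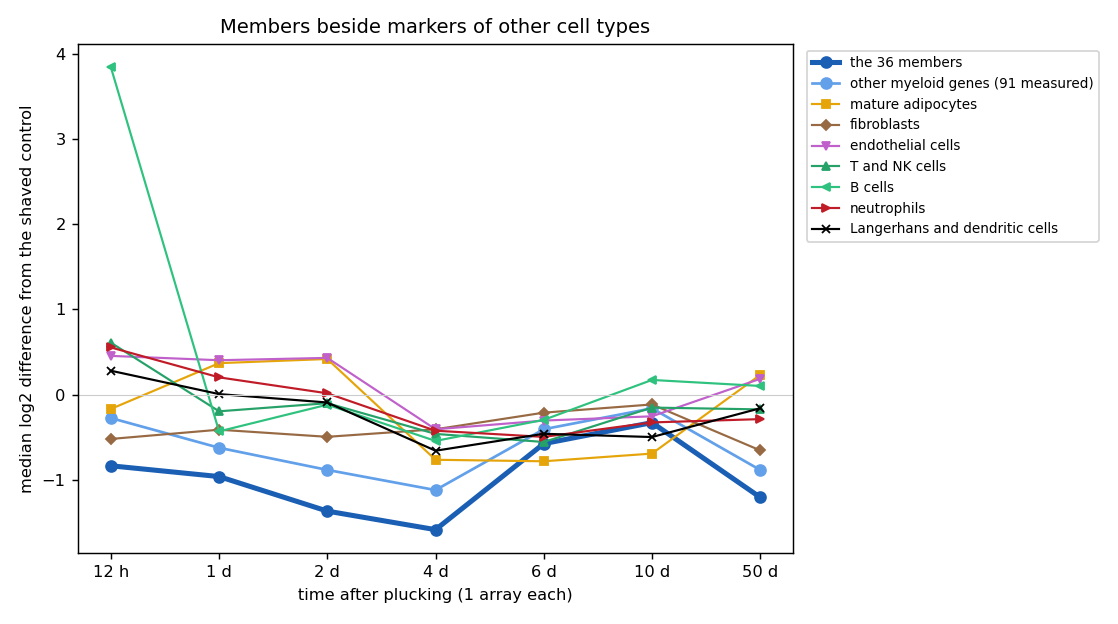
Median log2 difference from the shaved control by time after plucking, 1 array each, of the 36 macrophage and monocyte genes, of 91 other myeloid genes and of markers of adipocytes, fibroblasts, endothelial cells, T and NK cells, B cells, neutrophils, and Langerhans and dendritic cells. Among the lines drawn, the 36 genes (dark blue) lie lowest at 12 h, 1 d, 2 d, 4 d and 50 d (-1.21), adipocyte markers lie lowest at 6 d (-0.78) and 10 d (-0.69), and the B cell line stands at 3.84 at 12 h; dividing cells and keratinocytes are not drawn.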

How the data were processed

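The authors deposited the scanner output of each array, whose spot intensity was made with Agilent Feature Extraction 10.5.1.1 per the file headers, with background subtracted and detrending applied, and no normalization between arrays is recorded. Outlier spots were left out, spots of a probe were averaged, and 13 of 55681 probes without a usable spot on some array were dropped. The log2 of each deposited processed signal was taken minus the array's 75th percentile. The probe brightest over the 8 arrays stood for a gene. A gene counted as higher or lower at a 2-fold difference or more, provided that the brighter of the compared arrays showed it well above background. Each group has 1 array, so nothing was tested and array number limits the precision.

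All 36 members are named. Other probes of a member are described where their difference has another sign or lies over 1 log2 unit away. Of the pathway lists, the 2 lowest and 2 highest genes per time could be named, and of other genes the 10 most like the members' median profile. Some genes that this rule takes are not reported here. Genes of the list paragraphs outside this rule were chosen as examples after their values were seen. The members and lists were chosen with earlier results of these data known. Current symbols came from a RefSeq table (GRCm38.p6), for names only. It matched 34 of the 36 members, 2 of them (Emr1 and Chi3l3) under a new symbol, and gave no match for Clec7a and Cd68. Probe positions are on mm9 per the file headers. No mm9 annotation was used here, so exon and UTR positions are not given. Upstream windows came from RefSeq (GRCm38.p6). Computation used Python 3.11.15, numpy 2.4.6 and pandas 2.3.3, and background correction by normexp in limma 3.58.1 under R 4.3.3. The counting was checked on simulated data. The choices varied were the scaling (quantile normalization, or the median of bright probes in place of the percentile), the background (normexp with an offset of 50), stricter and no filters on background, dim genes at their bound, the mean over a gene's probes, thresholds of 1.5-fold and 3-fold, the 50 d array as the baseline and shorter member lists.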

Additional observations from a re-analysis of the deposited data

How the results depend on the processing

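No paired analysis was possible because each group holds 1 array and all arrays carry the same replicate number, and for the same reason no array could be left out of a group. Of 334 recomputed medians and counts of the members, 297 stayed within the limits set, 33 moved and 4 changed sign. The filters on background and the bound for dim genes could not change any of them, because all 36 members were well above background on all arrays. The fold thresholds could not change a median. Many of the 297 were thus fixed in advance. The sign changes came with the 50 d array in place of the control, where the medians were 0.35 after 12 h, 0.13 after 1 d, 0.59 after 6 d and 0.87 after 10 d, and those at 2 d and 4 d moved to -0.12 and -0.37. Members at least 2-fold lower than 50 d then numbered 1 after 12 h, 2 after 1 d, 3 after 2 d, 1 after 4 d, 0 after 6 d and 0 after 10 d. At a threshold of 1.5-fold the members lower than the control numbered 22 after 12 h, 29 after 1 d, 18 after 6 d and 9 after 10 d. At 3-fold they numbered 1 after 12 h, 7 after 1 d, 10 after 2 d, 18 after 4 d, 1 after 6 d, 1 after 10 d and 4 after 50 d. With arrays centred on the median of bright probes instead, 3 were lower at 6 d. Members higher than 50 d at 1.5-fold numbered 10 after 12 h, 5 after 1 d, 1 after 2 d, 18 after 6 d and 28 after 10 d, and at 3-fold 4 in the control, 1 after 6 d and 1 after 10 d. The shares of all genes at 1.5-fold and 3-fold are not given, so the counts at these thresholds cannot be compared with all genes. Quantile normalization gave 16 members higher than 50 d at 10 d. The choices in the next sentence, and the shorter list against 50 d in the one after it, were made after seeing the data. Without Siglec1, Itgam, Marco, Chi3l3, Arg1 and Gpnmb, 2 members were lower than the control at 10 d, and Itgam by its second probe moved no median or count past the limits. Without Csf1, Arg1, Gpnmb, Adam8, Chi3l3, Marco and Retnla, which other cells also express, the 1 d median was -1.17, and 3 members at 12 h and 0 after 4 d were higher than 50 d. Single members were recomputed only for their 173 differences of at least 2-fold, against the control or the 50 d array. A change of sign was thus unlikely from the outset. With the baseline kept, 0 of 1211 recomputed values changed sign and 39 moved by more than the SD between probes. Of these 39, 26 moved with normexp and 13 with the mean over probes. The filters on background and the bound for dim genes could not alter any of these values. With the 50 d array in place of the control, 29 of 98 values changed sign. At 12 h these were Tyrobp 0.13, Trem2 0.64, Siglec1 1.03, Folr2 0.0076, C1qa 0.27, C1qb 0.32 and Aif1 0.36. At 1 d they were Fcer1g 0.22, Trem2 0.27, Siglec1 0.19, Clec4n 0.28, C1qb 0.19, C1qc 0.16, Cd68 0.14 and Ctss 0.098. At 2 d they were Trem2 0.31, Clec4n 0.039, Adam8 0.072, Mpeg1 0.063 and Chi3l3 0.29, and at 4 d Trem2 0.049 and Clec4n 0.20. At 6 d they were Fcer1g 0.57, Tyrobp 0.41, Clec4n 0.85 and Clec7a 0.22, and at 10 d Siglec1 0.73, Clec4n 0.86 and Chi3l3 0.20. These follow from the low 50 d levels given above. With normexp, higher genes made up 49.3% of all calls at 50 d against the control in place of 38.0%, and against 50 d 51.6% at 2 d in place of 62.5%, 44.9% at 6 d in place of 61.2% and 40.4% at 10 d in place of 55.6%. Normexp shifted the median of all genes against 50 d by -0.12 after 12 h and -0.17 after 6 d. All 36 members were well above background on all arrays, so the number of arrays, not the signal, limits what their differences can show.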
